A study of Mus musculus with 16 samples.

Results

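A set of 10 genes of antioxidant defence and of protection from ferroptosis was followed in murine B cell lymphomas: Nfe2l2, Slc7a11, Gclc, Gclm, Gpx4, Aifm2, Nqo1, Txnrd1, Sod2 and Acsl4. They were taken by name, as every probe annotated with one of these 10 symbols, which gave 20 of 25697 probes and 10 of 16590 genes with a named probe. Signal came from Illumina bead arrays hybridised with total RNA of 8 lymphomas of strain C57B6. In the first 4, called Wrn tumours here, Eµ-Myc mice carried the Wrn Δhel allele on both copies, and the other 4 were Eµ-Myc tumours with no Wrn allele named. Both groups share the Eµ-Myc transgene, in which an immunoglobulin heavy chain enhancer drives the Myc oncogene in B cells, and in the Δhel allele the Werner syndrome protein has lost a stretch of its helicase domain. Age and treatment are not given in the labels. Tumours are numbered 1 to 4 in each genotype, and their titles also carry a letter of unstated meaning: L for Wrn tumours 1 and 3 and Eµ-Myc tumours 2 and 4, E for the others.

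Ferroptosis is a form of cell death driven by iron and by peroxides of polyunsaturated membrane lipids. Acsl4 loads membranes with the lipids that peroxidise, Gpx4 reduces their peroxides with glutathione, and Aifm2, also called FSP1, reduces coenzyme Q to a radical trap at the membrane. Glutathione is made by Gclc and Gclm from cystine that Slc7a11 imports, and many of these genes are induced by Nfe2l2, the transcription factor Nrf2.

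Signal is given as log2 after background correction and quantile normalization, with an offset of 16 that understates changes of dim probes. A probe counted as detected at a detection p under 0.01 on its array, and was tested when detected on at least 4 of 8 arrays, as 11024 probes were. Between 10607 and 11369 probes were detected per array, and median raw intensity lay between 49.9 and 52.8. The targeted gene Wrn had a signal of 7.03 to 7.48 in Wrn tumours and 7.56 to 8.45 in Eµ-Myc tumours, a difference of -0.75 ± 0.22 (SE, limma adjusted p = 0.973), and where its probe lies relative to the deletion is not stated in the labels. Of 8 listed B cell markers with a probe, 7 were tested, Cd79a, Cd79b and Ms4a1 among them, while the probe of Pax5 was detected on no array. No label ties a tumour to its own animal, and p-values therefore cover only the spread among these 8 samples, which may be technical in part.

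Of the 10 genes, 6 could be tested, each through 1 probe: Nfe2l2, Gclm, Gpx4, Aifm2, Sod2 and Acsl4. Of the 20 probes, 5 were detected in all 8 tumours, 1 in 7, 1 in 3, 2 in 1 and 11 in none. The probe of the cystine importer Slc7a11 was detected in no tumour, with raw intensities of 43.1 to 52.2 in Wrn tumours and 42.4 to 50.4 in Eµ-Myc tumours. The lowest raw intensity of a detected probe lay between 54.9 and 59.1 on the 8 arrays. Both probes of the quinone reductase Nqo1 (40.8 to 54.8 in Wrn tumours, 40.6 to 53.9 in Eµ-Myc tumours) and the probe of the thioredoxin reductase Txnrd1 (46.2 to 52.9 in Wrn tumours, 50.1 to 53.9 in Eµ-Myc tumours) were likewise not detected in any tumour. Gclc, the catalytic subunit of glutamate-cysteine ligase, was detected in Wrn tumour 4 and in Eµ-Myc tumours 2 and 4, with raw intensities of 49.0 to 57.3 in Wrn tumours and 48.4 to 60.4 in Eµ-Myc tumours. These probes have only a bound, so no difference between genotypes is given for them. The probes of Slc3a2, the partner chain of Slc7a11, and of the ferritin light chain Ftl1, a gene used by most cells, were also detected on no array.

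**Figure D1:**
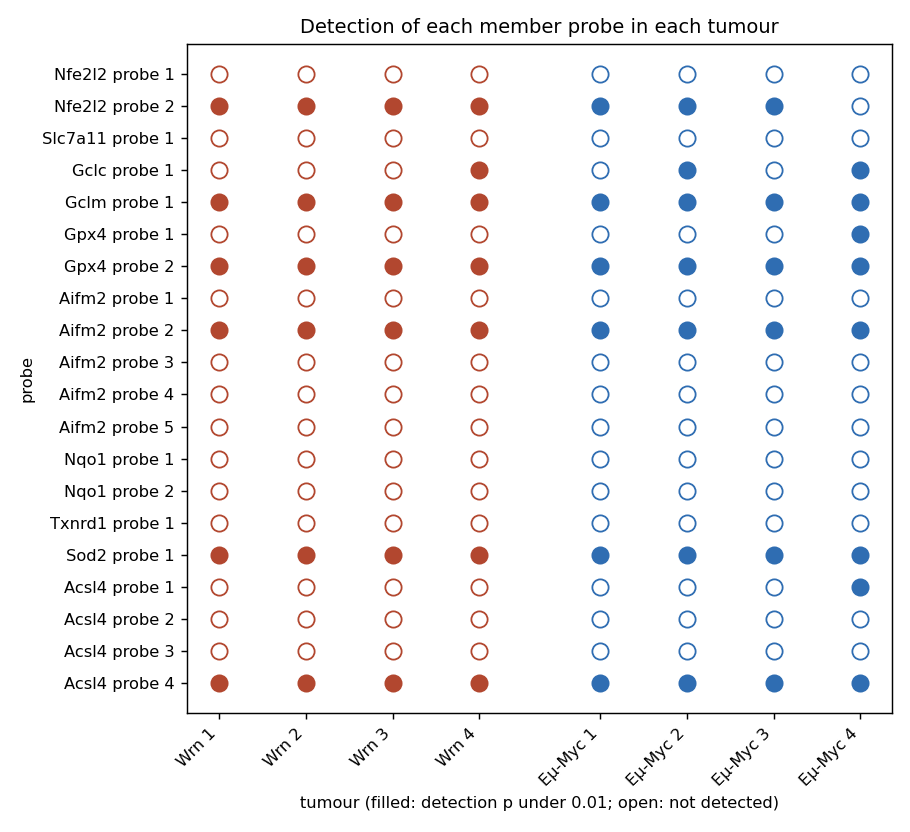
Detection of the 20 member probes (rows) in the 4 Wrn tumours (left, red) and the 4 Eµ-Myc tumours (right, blue); filled circles are probes with a detection p under 0.01. Slc7a11, Nqo1 and Txnrd1 have no filled circle, and 1 probe each of Nfe2l2, Gclm, Gpx4, Aifm2, Sod2 and Acsl4 is filled in 7 or 8 tumours.

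Of the members, 3 carry the core of the antioxidant response element, the site bound by Nrf2 with small Maf proteins, in the 250 bases before a RefSeq start (GRCm38.p6). The core was searched as TGACNNNGC on both strands. It was found in 3 of 14 windows of 9 members, against 10.2% of all 32851 windows. The matches are shown because they lie beside the regulator itself, a detected gene and a gene with no detected probe, in capitals within the strand of the gene. In Nfe2l2 (chr2:75704875-75704913, minus strand) the match reads on the gene's strand, and in Gclm (chr3:122245403-122245451, plus strand) and Txnrd1 (chr10:82859094-82859142, plus strand) on the opposite one. The matches begin 240, 134 and 92 bases before the start of Nfe2l2, Gclm and Txnrd1, the last in 1 of 3 Txnrd1 windows.
Nfe2l2: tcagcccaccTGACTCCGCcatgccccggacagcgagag
Gclm: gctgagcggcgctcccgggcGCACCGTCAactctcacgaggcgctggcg
Txnrd1: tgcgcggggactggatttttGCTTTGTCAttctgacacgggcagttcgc
The E-box CACGTG, the core bound by Myc with Max, which reads alike on both strands and can share an end base with the other core, was in 0 of the 14 windows and in 6.02% of all windows. A match is a description of these letters and not a binding site.

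Aifm2 was the member that separated the genotypes. Its signal was 6.36, 6.57, 6.33 and 6.45 in Wrn tumours 1 to 4, against 7.18, 7.64, 7.61 and 6.83 in Eµ-Myc tumours 1 to 4. The 4 Wrn tumours all lay under the lowest Eµ-Myc tumour and were closer to each other than the Eµ-Myc tumours were. The means were 6.43 ± 0.11 in Wrn tumours and 7.31 ± 0.39 in Eµ-Myc tumours (SD, n = 4 each), a difference of -0.89 ± 0.21 (SE), or 0.541 of the Eµ-Myc level. It did not pass over all probes (limma adjusted p = 0.925, unadjusted p = 0.00151), and the exact two-sided permutation p of 0.0286 is the smallest that 4 against 4 tumours allow. In the deposited lumi values, which are linear intensities, Aifm2 read 66.3, 78.8, 64.5 and 71.4 in Wrn tumours and 128.7, 183.8, 179.7 and 97.4 in Eµ-Myc tumours, with means of 70.2 ± 6.41 and 147 ± 41.7 (SD) in that order, a ratio of 0.477. The genotypes are apart there as well. The other 4 Aifm2 probes were detected in no tumour, with raw intensities of 40.1 to 50.7 in Wrn tumours and 40.0 to 56.5 in Eµ-Myc tumours, so the difference rests on 1 probe.

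The 250 bases before the RefSeq start of Aifm2 (chr10:61720399-61720648, plus strand, GRCm38.p6) held neither core and are shown as the window of the one member that separated the genotypes.
Aifm2: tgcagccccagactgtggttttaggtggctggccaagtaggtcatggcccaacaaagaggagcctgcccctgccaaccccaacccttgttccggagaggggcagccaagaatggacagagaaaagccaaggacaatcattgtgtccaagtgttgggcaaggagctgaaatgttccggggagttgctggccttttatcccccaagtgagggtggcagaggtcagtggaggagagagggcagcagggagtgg

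The lower Aifm2 signal was found in both letters. Among L tumours the means were 6.35 in Wrn and 7.23 in Eµ-Myc tumours, and among E tumours 6.51 in Wrn and 7.39 in Eµ-Myc tumours, a difference of -0.89 in each. Markers of cell types the tumours could hold were read beside this value, and 0 of them passed the test (limma), against 0.0261% of tested genes. Past an unadjusted limma p of 0.05 were 3 of 11 macrophage markers and 2 of 7 B cell markers, against 3.85% of tested genes. In each of the other marker lists 0 were. Of all these markers the genotypes did not overlap for Btk alone, as for 161 of 7665 tested genes. Of 14 listed markers of macrophages and monocytes 11 were tested and 10 were lower in Wrn tumours, with a median difference of -0.507. Fcer1g at -0.78 ± 0.26 and C1qc at -0.58 ± 0.20 (SE) had the lowest p of these. Their summed signal, in linear units above the offset, ran from 5549 to 9979 in Wrn tumours and from 8007 to 12245 in Eµ-Myc tumours. All 7 tested markers of B cells were higher in Wrn tumours (median difference 0.336, Btk at 0.56 ± 0.21 and Blk at 1.39 ± 0.57), with summed signals of 10943 to 17888 in Wrn tumours and 9012 to 12525 in Eµ-Myc tumours. Of the markers of red cells 3 of 3 tested were lower in Wrn tumours, of granulocytes 5 of 6 and of T cells 2 of 3, with medians of -0.766, -0.347 and -0.473, and Klf1, Cd4 and Cd8a of these lists were detected on no array. The summed red cell signal overlapped, at 1473 to 16081 in Wrn tumours and 5250 to 25874 in Eµ-Myc tumours. It was highest in Wrn tumour 4 and Eµ-Myc tumour 2. The granulocyte values, and Cd3g and Cd3d among the T cell markers, each hold 1 Eµ-Myc tumour that stood above the rest. Mpo and Ngp were 6.81 and 6.75 in Eµ-Myc tumour 3 and at most 5.23 in any other tumour, and the summed granulocyte signal was 90 to 564 in Wrn tumours and 92 to 2524 in Eµ-Myc tumours, with the 2524 in tumour 3. Cd3g and Cd3d were 7.03 and 7.8 in Eµ-Myc tumour 2 and at most 5.84 in any other, while the T cell sums overlapped, at 245 to 723 in Wrn tumours and 151 to 713 in Eµ-Myc tumours. The other tested T cell marker, Cd2, was 8.67 in Eµ-Myc tumour 2 and highest in Wrn tumour 4 at 9.49. It differed by 0.34 ± 0.47. By the fit, Hba-a1 differed by -1.21 ± 0.69, Slc4a1 by -0.77 ± 0.70, Mpo by -0.36 ± 0.49, Ngp by -0.33 ± 0.47, Cd3g by -0.47 ± 0.49 and Cd3d by -0.51 ± 0.57. Of these, Mpo, Ngp and Cd3g were detected on 4 of 8 arrays, Slc4a1 on 5 and Cd3d on 7. Medians were 0.0607 for 4 tested markers of endothelium, Pecam1 and Emcn among them, and -0.00948 for 6 of stroma, Dcn and Lum among them. The macrophage and B cell sums overlapped between genotypes, and the part of other cells in the Aifm2 difference was not tested. Linear sums weigh the brightest markers most, here Lyz2 for macrophages, Cd79b for B cells and Hba-a1 for red cells. In bulk tumour RNA, fewer cells of a type and less RNA per cell cannot be told apart.

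**Figure D2:**
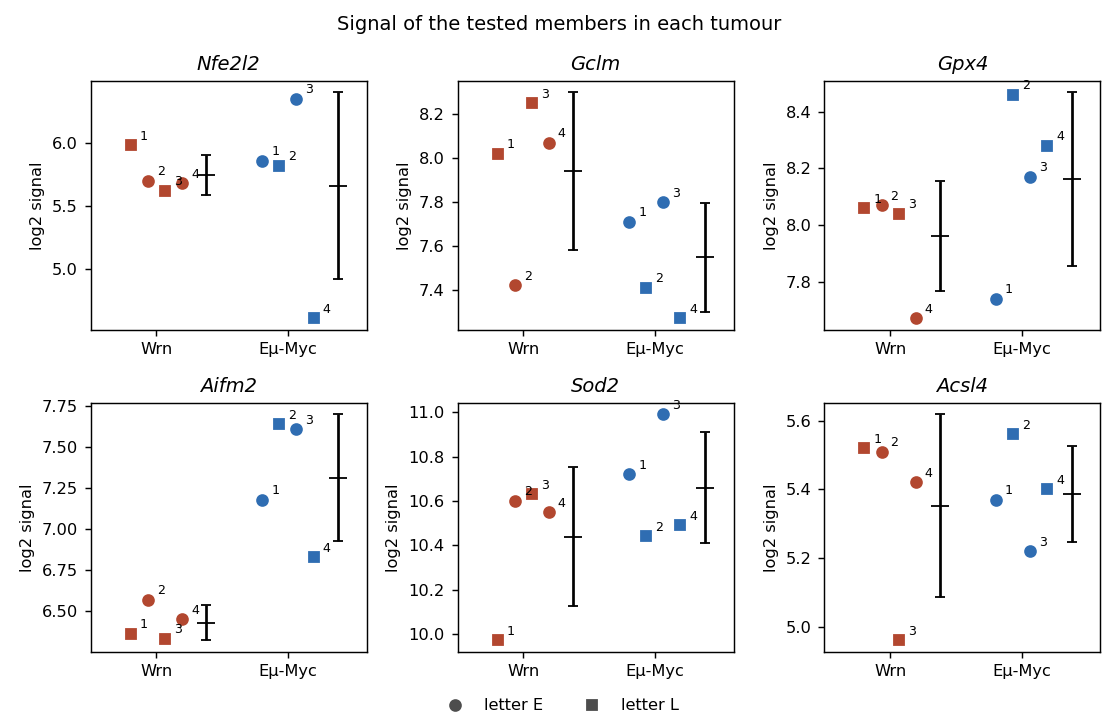
Log2 signal of the 6 tested members in each tumour, Wrn tumours at the left (red) and Eµ-Myc tumours at the right (blue) of each panel, numbered by replicate, with squares for letter L and circles for E; bars give the mean ± SD (n = 4). The genotypes are apart for Aifm2, between 6.57 and 6.83, and overlap for the other 5 genes.

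The regulator Nfe2l2 overlapped between genotypes. Its signal was 5.98, 5.7, 5.62 and 5.68 in Wrn tumours 1 to 4, against 5.86, 5.82, 6.35 and 4.61 in Eµ-Myc tumours 1 to 4. Eµ-Myc tumour 4 lay lowest, where the probe was not detected, and Eµ-Myc tumour 3 highest, so the Wrn tumours fell within the range of the others. The difference was 0.084 ± 0.32 (SE, n = 4 per genotype, limma adjusted p = 0.987), and it became -0.27 without Eµ-Myc tumour 4. A second Nfe2l2 probe was detected in no tumour.

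Gclm, the modifier subunit of glutamate-cysteine ligase, had the largest difference towards Wrn tumours among the members. Its signal was 8.02, 7.42, 8.25 and 8.07 in Wrn tumours 1 to 4, against 7.71, 7.41, 7.8 and 7.27 in Eµ-Myc tumours 1 to 4. Wrn tumours 1, 3 and 4 lay above all Eµ-Myc tumours, while Wrn tumour 2 lay among them. The means of 7.94 ± 0.36 in Wrn tumours and 7.55 ± 0.25 in Eµ-Myc tumours (SD, n = 4) differed by 0.39 ± 0.22 (SE, limma adjusted p = 0.973, exact permutation p = 0.143). Without Wrn tumour 2 the difference was 0.56 (limma adjusted p = 0.999).

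Gpx4, the lipid peroxidase that guards against ferroptosis, had signals of 8.06, 8.07, 8.04 and 7.67 in Wrn tumours 1 to 4, against 7.74, 8.46, 8.17 and 8.28 in Eµ-Myc tumours 1 to 4. The highest 3 values were Eµ-Myc tumours, and Eµ-Myc tumour 1 lay near the lowest Wrn tumour. The difference was -0.2 ± 0.2 (SE, n = 4 per genotype, limma adjusted p = 0.973), and it was -0.1 without Wrn tumour 4, -0.099 without Eµ-Myc tumour 2 and -0.34 without Eµ-Myc tumour 1. A second Gpx4 probe was detected in Eµ-Myc tumour 4 alone.

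Sod2, the superoxide dismutase of mitochondria, had signals of 9.97, 10.6, 10.63 and 10.55 in Wrn tumours 1 to 4, against 10.72, 10.44, 10.99 and 10.49 in Eµ-Myc tumours 1 to 4. Wrn tumour 1 stood below the rest, and the other 3 Wrn tumours lay within the Eµ-Myc range. The difference was -0.22 ± 0.21 (SE, n = 4 per genotype, limma adjusted p = 0.973), and -0.068 without Wrn tumour 1. Acsl4, whose product favours ferroptosis, had signals of 5.52, 5.51, 4.96 and 5.42 in Wrn tumours 1 to 4, against 5.37, 5.56, 5.22 and 5.4 in Eµ-Myc tumours 1 to 4. Its lowest value was in Wrn tumour 3 and the genotypes overlapped, with a difference of -0.035 ± 0.18 (SE, limma adjusted p = 0.987). The Acsl4 probe was dim, with raw intensities of 56.8 to 79.4, and the offset understates changes of such a probe. Of the other 3 Acsl4 probes, 1 was detected in Eµ-Myc tumour 4 and the others in no tumour.

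Of the 6 tested members, 0 passed at a limma adjusted p under 0.05, where 4 of 11024 tested probes did, or 0.0363%. Of the members 1, Aifm2, was past an unadjusted p of 0.05, against 3.76% of tested probes, and the genotypes did not overlap for the same 1 of 6, against 2.21% of tested probes. Of the members 2 were higher and 4 lower in Wrn tumours, with a median difference of -0.12, beside 0.0068 over all tested probes. Under 19 other settings of the processing, model or tumours used, the Aifm2 difference ran from -1.05 to -0.69, and it passed the test under none of them (limma adjusted p from 0.288 to 1).

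**Figure D3:**
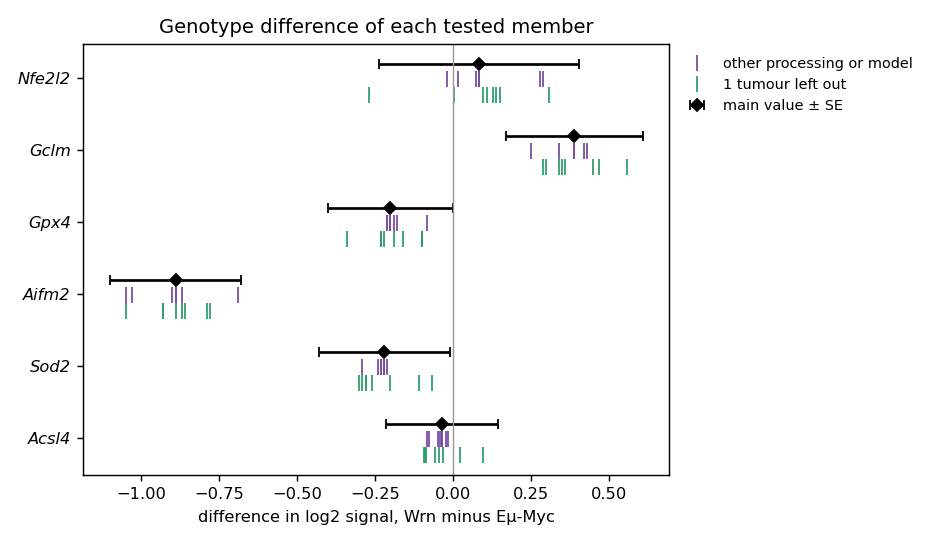
Difference in log2 signal, Wrn minus Eµ-Myc, of the 6 tested members: diamonds are the reported value with its SE, and ticks the value under other processings or models (purple) and with 1 tumour left out (green). All ticks of Aifm2 lie between -1.05 and -0.69, whereas those of Nfe2l2 and Acsl4 lie on both sides of 0.

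The title letters were compared next. With genotype in the model, 0 of 6 passed at a limma adjusted p under 0.05, against 2 of 11024 tested probes (0.0181%), and 0 were past an unadjusted p of 0.05, against 7.44%. The letters did not overlap for 0 of 6 members, against 5.01% of tested probes. Sod2 averaged 10.38 ± 0.28 in L and 10.72 ± 0.20 in E tumours (SD, n = 4), a difference of -0.34 ± 0.19 (SE, limma adjusted p = 0.75). Nfe2l2 averaged 5.51 in L and 5.9 in E tumours, a difference of -0.39 ± 0.31 (limma adjusted p = 0.817) that was -0.047 without Eµ-Myc tumour 4, where the probe was not detected. Gpx4 averaged 8.21 in L and 7.91 in E tumours, a difference of 0.29 ± 0.18 (limma adjusted p = 0.77). Aifm2, Gclm and Acsl4 differed by -0.16 ± 0.21, -0.014 ± 0.23 and -0.018 ± 0.19 (limma adjusted p of 0.891, 0.994 and 0.989).

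Whether the genotype difference was the same in both letters was tested as an interaction, which on these tumours is also the contrast of replicates 1 and 3 against 2 and 4. Of the 6 members 0 passed (limma), as 0 of 11024 tested probes did (0%), and 0 members were past an unadjusted p of 0.05, against 5.03%. Gclm was 8.13 in Wrn and 7.34 in Eµ-Myc tumours of letter L, and 7.74 in Wrn and 7.76 in Eµ-Myc tumours of letter E. The genotype difference of Gclm was thus 0.81 ± 0.40 larger in L (SE, limma adjusted p = 0.937). That of Nfe2l2 was 1.00 ± 0.56 larger in L (limma adjusted p = 0.937), with means of 5.8 in Wrn and 5.22 in Eµ-Myc tumours of letter L and 5.69 in Wrn and 6.11 in Eµ-Myc tumours of letter E. The low L mean of Eµ-Myc tumours holds the undetected value of Eµ-Myc tumour 4. For Aifm2 the interaction was -0.00015 ± 0.45 (limma adjusted p = 1).

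Covariation among the members was tested over tumours. Among 15 pairs of the 6 tested members, 0 passed after adjustment by an exact permutation test of Pearson's r over the 8 tumours, and 0 had an unadjusted exact p under 0.05. Nfe2l2 and its target Gclm had r = 0.43 (exact p = 0.305, adjusted p = 0.654) and Spearman's rho = 0.1 (exact p = 0.84, adjusted p = 0.9), and r was -0.21 without the 2 tumours farthest from the median of Nfe2l2. Aifm2 and Gpx4, which act in parallel branches of the defence, had r = 0.45 (exact p = 0.258, adjusted p = 0.644) and rho = 0.6 (exact p = 0.132, adjusted p = 0.496), with r = -0.05 without the farthest 2 and 0.22 after genotype means were subtracted. That subtraction moved other pairs of Aifm2 as well. For Gclm and Aifm2 r was 0.071 then, against -0.48 pooled (exact p of the pooled value 0.22, adjusted p 0.644). For Nfe2l2 and Aifm2 r was 0.8 then, against 0.31 pooled (exact p of the pooled value 0.492, adjusted p 0.893). On 4 tumours each, r differed between the genotypes in both pairs, and that gap was not tested. Nfe2l2 and Aifm2 had r = -0.21 in Wrn tumours alone and 0.86 in Eµ-Myc tumours alone, where Nfe2l2 was undetected in tumour 4. Gclm and Aifm2 had r = -0.92 and 0.49 in that order. Pairs without Aifm2 could differ too, as Nfe2l2 and Sod2 had r = -0.98 and 0.68, while Gclm and Acsl4 had -0.63 and -0.7. Without the 2 tumours farthest from the median of Nfe2l2, r of Nfe2l2 and Aifm2 was 0.29. The lowest exact p of a rank correlation was that of Sod2 and Acsl4, with rho = -0.81 (exact p = 0.0218, adjusted p = 0.327). Their r was -0.5 (exact p = 0.207, adjusted p = 0.644), and -0.44 without the farthest 2. Next came Gclm and Gpx4, with rho = -0.74 (exact p = 0.0458, adjusted p = 0.344). Their r was -0.56 (exact p = 0.154, adjusted p = 0.644), and -0.6 without the farthest 2.

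Among 7664 other tested genes, Wrn itself had the highest r with Aifm2 over the 8 tumours pooled, at 0.962, and both genes have lower means in Wrn tumours. It was followed by the interferon-induced gene Bst2 and by Lysmd2, each at r = 0.909. Wrn signal was 7.03, 7.48, 7.33 and 7.46 in Wrn tumours 1 to 4, against 8.06, 8.45, 8.21 and 7.56 in Eµ-Myc tumours 1 to 4. In both genes Eµ-Myc tumour 2 was highest and Eµ-Myc tumour 4 the lowest of its genotype. After genotype means were subtracted r was 0.89 for Wrn, 0.94 for Bst2 and 0.76 for Lysmd2, so Wrn did not lead these 3 genes then. In Wrn tumours alone r was 0.65 for Wrn, 0.78 for Bst2 and 0.07 for Lysmd2. In Eµ-Myc tumours alone r was 0.95, 0.98 and 0.99 in that order. Without the 2 tumours farthest from the median of Aifm2 it was 0.91 for Wrn, 0.58 for Bst2 and 0.67 for Lysmd2. The values are descriptions over 8 tumours of the closest of many genes and carry no p. The nearest genes to the other members were Alg14, Utp23 and Cdk10 for Nfe2l2 (r of 0.972, 0.97 and 0.952), Cisd1, Cdc42ep4 and Trim35 for Gclm (0.939, 0.934 and 0.929), and Srd5a3, Mboat7 and Calhm6 for Gpx4 (0.952, 0.943 and 0.943). For Sod2 they were Bag3, Rbx1 and Cox17 (0.945, 0.944 and 0.942) and for Acsl4 Dctn2, Ddx21 and Olfml1 (0.94, 0.923 and 0.911). Cisd1 and Rbx1 also stand in the lists of iron handling and of Nrf2 regulators below. For Nfe2l2, r was 0.63 with Alg14, 0.87 with Utp23 and 0.13 with Cdk10 once the 2 tumours farthest from its median were left out. By the same measure r was 0.89, 0.82 and 0.61 for the 3 genes of Sod2 and 0.71, 0.71 and 0.34 for those of Acsl4, in the order given, while it stayed at 0.84 to 0.97 for those of Gclm and 0.87 to 0.94 for those of Gpx4.

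**Figure D4:**
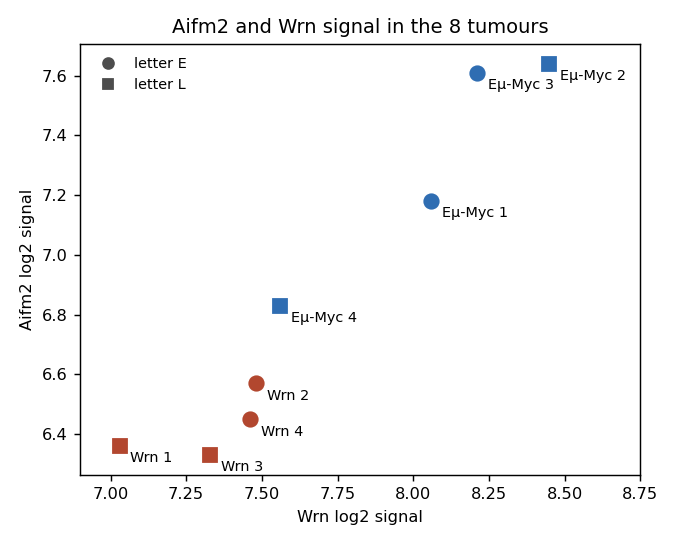
Log2 signal of Aifm2 (vertical) against that of Wrn (horizontal) in the 8 tumours, with Wrn tumours in red, Eµ-Myc tumours in blue, squares for letter L and circles for E. The tumours run from Wrn tumours 1 and 3 at the low end to Eµ-Myc tumour 2 at the high end, with r = 0.962 pooled. Within genotypes r was 0.65 in Wrn tumours and 0.95 in Eµ-Myc tumours.

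Other genes of these pathways were taken from 11 lists holding 148 genes besides the members, of which 104 were tested through the brightest probe of each. Of these 51 were higher and 53 lower in Wrn tumours, with a median difference of -0.0198, beside 0.00692 over 7665 tested genes. None passed (limma, 0 of 104, against 0.0261% of tested genes), and 1 of 104 was past an unadjusted p of 0.05, against 3.85% of tested genes. That 1 gene was Msrb1, a selenoprotein that repairs oxidised methionine, at 7.25, 7.34, 7.67 and 7.49 in Wrn tumours 1 to 4, against 7.73, 7.97, 8.36 and 7.86 in Eµ-Myc tumours 1 to 4. Its genotypes did not overlap, with Wrn tumour 3 closest to Eµ-Myc tumour 1, and it differed by -0.54 ± 0.19 (SE, limma adjusted p = 0.973). The adjusted p was also 0.973 for each tested gene of these lists whose difference is given next.

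Around Nfe2l2, 7 of 10 listed regulators and partners were tested, 3 higher and 4 lower in Wrn tumours, with a median of -0.11. Bach1, a repressor of the same sites, differed by 0.38 ± 0.21 and the related factor Nfe2l1 by -0.22 ± 0.17 (SE, n = 4 per genotype here and below). Of 16 other Nrf2 targets 9 were tested, 4 higher and 5 lower, with a median of -0.023. Haem oxygenase Hmox1 differed by -0.56 ± 0.30, with 6.56 ± 0.63 in Wrn and 7.13 ± 0.28 in Eµ-Myc tumours (SD), and the carbonyl reductase Cbr3 by 0.73 ± 0.50, with Eµ-Myc tumour 2 lowest at 6.88. Me1, Osgin1 and Ftl1 of that list were detected in no tumour.

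The glutathione list had 20 of 26 genes tested, 10 in each direction, with a median of -0.0047. Gstz1, a glutathione transferase of tyrosine breakdown, differed by 0.55 ± 0.26 and the microsomal transferase Mgst2 by 1.12 ± 0.57, with values of 5.34 to 8.12 in Wrn and 4.91 to 6.22 in Eµ-Myc tumours. Genes of thioredoxin and peroxiredoxins were tested for 12 of 15, 7 higher and 5 lower, with a median of 0.041, among them Txnip, the inhibitor of thioredoxin, at 0.34 ± 0.24. Of the superoxide and peroxide scavengers, 4 of 4 were tested, with a median of 0.10. Ccs, the copper chaperone of Sod1, differed by -0.39 ± 0.27 and Sod1 by 0.21 ± 0.21. The NADPH oxidase list had 2 of 5 genes tested, Ncf4 at 0.45 ± 0.26 and Cyba at -0.19 ± 0.20, while Cybb and Ncf1 were detected in no tumour.

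Beside Aifm2 and Nqo1, genes of coenzyme Q, tetrahydrobiopterin and vitamin K reduction were tested for 12 of 15, 8 higher and 4 lower, with a median of 0.092. Vkorc1l1, a vitamin K epoxide reductase, differed by -0.44 ± 0.22 and Coq9, of coenzyme Q synthesis, by 0.32 ± 0.21. Selenoproteins and the genes that make them, on which Gpx4 depends, were tested for 11 of 13, 3 higher and 8 lower, with a median of -0.13. Selenos differed by -0.34 ± 0.21 and Secisbp2, which reads the selenocysteine signal, by -0.18 ± 0.21. Supply of cystine and glutamine and the Atf4 response had 6 of 14 genes tested, 2 higher and 4 lower, with a median of -0.27. Chac1, which breaks down glutathione, differed by -0.76 ± 0.45 and Ddit3 by -0.40 ± 0.25. The Chac1 probe was detected on 6 of 8 arrays.

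Beside Acsl4, genes of membrane lipids and their peroxidation were tested for 12 of 18, 5 higher and 7 lower, with a median of -0.067. The desaturases Scd2 and Scd1, which make monounsaturated lipids, differed by -0.50 ± 0.26 and -0.53 ± 0.36, and the lipoxygenases Alox5 and Alox15 were detected in no tumour. Iron handling was tested for 13 of 18 genes, 6 higher and 7 lower, with a median of -0.033, among them the iron exporter Slc40a1 at -0.48 ± 0.31. Hmox1 stands in this list as well. Hmox1 and Slc40a1 are also expressed by macrophages, whose markers were lower by the median given above, and its part in these differences was not tested.

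**Figure D5:**
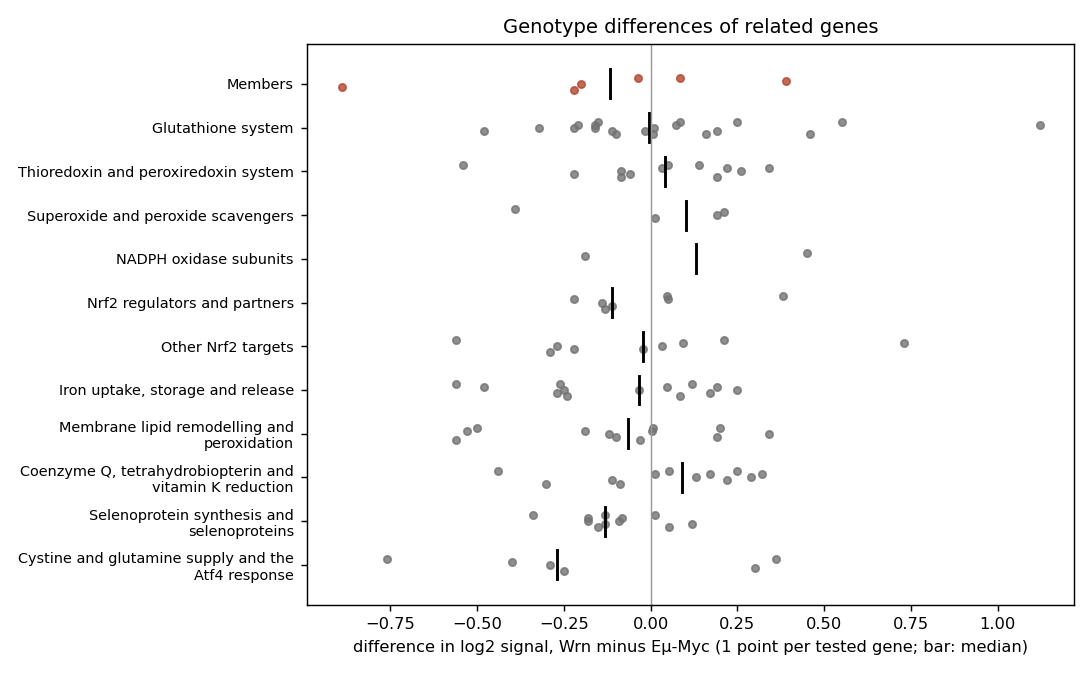
Difference in log2 signal, Wrn minus Eµ-Myc, of each tested gene in the 11 pathway lists (grey) and of the 6 tested members (red, top row); black bars are medians. Medians lie between -0.27 and 0.13, and the lowest point of the members is Aifm2 at -0.89.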

How the data were processed

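The series holds 16 records of 8 tumours, each under 2 processings, so each tumour was counted once. Per the file headers, the deposited non-normalized table gives each probe's average bead intensity and detection p-value per array. The deposited lumi columns hold a background-subtracted linear intensity, and the deposited GUI columns a score that, above a lumi value of 1000, is the square of the log2 lumi value (square roots within 0.0102 of it); both were seen from their values to be quantile normalized. Software settings are not stated in the labels or headers. Probe identifiers differ between the tables, so all 25697 probes were joined one to one by their ranks on the 8 arrays (highest ratio of best to second distance 0.147). Probes were named from the platform's annotation with symbols brought up to date by gene number, and 1719 had none.

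Raw intensities went through neqc (limma 3.58.1, R 4.3.3, offset 16), and genotypes, letters and their interaction were fitted with lmFit and eBayes over 11024 probes, two-sided, with Benjamini-Hochberg adjustment over all of them. Fits were tested on simulated data. Exact permutation tests ran over 70 orders of the tumours or all pairings, with Python 3.11.15 and scipy 1.17.1. Alternatives were other offsets, processings, scalings, filters and weights, a replicate block, the letter as covariate and leaving out each tumour. All probes of the members were accounted for; of each list the 2 tested genes with the lowest p, and of each member the 3 most correlated genes, were named, and other genes were named after their values were seen. Members, lists and motifs were chosen with earlier results of these data known; precision is limited by having 8 arrays.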

Additional observations from a re-analysis of the deposited data

Results flagged for a closer look

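Of 12 groups of 4 tumours examined for the 6 tested members, 2 held a tumour far from the others by Dixon's criterion, which chance meets in about 1 of 20 groups. Gpx4 was 7.67 in Wrn tumour 4, with the next Wrn tumour at 8.04 and the highest at 8.07. Sod2 was 9.97 in Wrn tumour 1, with the next Wrn tumour at 10.55 and the highest at 10.63. They are different tumours. Without Wrn tumour 4 the genotype difference of Gpx4 was -0.1, against -0.2 with it.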

How the results depend on the processing

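Of the tested members 0 passed under each of 19 alternatives between genotypes, 18 between letters and 17 for their interaction, leaving out 1 tumour included, and 0 of the related genes passed under 18. Counts of correlated pairs were 0 under 13. Aifm2, Gclm, Gpx4 and Sod2 kept the direction of their genotype difference under 19 of 19. With 1 tumour left out, Aifm2 ran from -1.05 to -0.78, Gclm from 0.29 to 0.56, Gpx4 from -0.34 to -0.0993 and Sod2 from -0.3 to -0.0683. Nfe2l2 ran from -0.27 to 0.31 and Acsl4 from -0.0916 to 0.0959, and both thus lay on either side of 0. Between letters the same held for Gclm (-0.23 to 0.0944), Aifm2 (-0.32 to 0.0027) and Acsl4 (-0.0911 to 0.14). The letter difference of Nfe2l2 kept its sign but ran from -0.56 to -0.0468, the smallest without Eµ-Myc tumour 4. Array weights turned the genotype difference of Nfe2l2 to -0.0184 and the letter difference of Gclm to 0.21, and the cause was not tested. The replicate block left 0 members past the test, with Aifm2 at -0.89 ± 0.22 (limma adjusted p = 0.997). Deviations from the genotype means correlated between same-numbered tumours at -0.004, -0.175, -0.214 and -0.186 for numbers 1 to 4. Same-numbered tumours carry opposite letters and the letter was not removed, so these values cannot tell whether the numbers pair the tumours. A slide block was not run, as the columns name no slide. Dim probes limit what can be said of Slc7a11, Nqo1, Txnrd1 and Gclc.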
